A study of Mus musculus with 79 samples.

Results

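Semaphorins, plexins and neuropilins were described in 4 neuron types of the mouse medial prefrontal cortex, in mice under unpredictable chronic mild stress (UCMS) and in controls. Members were the genes of the deposited table whose symbols name a semaphorin of class 3 to 7, a plexin or a neuropilin: 31 of 38879 genes, made up of 20 semaphorins, 9 plexins and 2 neuropilins. The UCMS arm held 10 male C57Bl/6J mice that were housed singly and met a changing sequence of mild stressors, such as wet bedding, tilted cages, predator odor and restraint, for 5 weeks. The control arm held 10 male C57Bl/6J mice kept in groups with littermates. Single housing and the stressors went together, so they cannot be told apart in these data. All mice went through behavioural tests, and their ages are not stated in the labels. From each brain, 130 cells of each type were cut out of frozen sections by laser after RNAscope probes had marked them: pyramidal neurons (PYR), parvalbumin neurons (PV), somatostatin neurons (SST) and vasoactive intestinal peptide neurons (VIP). Each library is therefore 1 pool of cells from 1 mouse. The 79 libraries were 10 UCMS and 10 control libraries of PYR, SST and VIP neurons, and 9 UCMS and 10 control libraries of PV neurons. UCMS mouse U609 had no PV library.

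Semaphorins are cues for growing axons and dendrites and, in the adult, for synapses. Class 3 semaphorins are secreted, and most of them bind a neuropilin, which carries the ligand, together with a plexin, which signals into the cell. Semaphorins of classes 4, 5 and 6 span the membrane, Sema7a is held to it by a lipid anchor, and these mostly bind plexins directly. Plexins act through effectors such as collapsin response mediators, MICAL enzymes and LIM kinase to reshape the cytoskeleton, and they loosen adhesion. In the cortex the system is known for guiding migrating interneurons, placing axons and dendrites by layer and pruning synapses.

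Values are normalized counts, that is, reads scaled by a size factor per library before deposit by the authors. The libraries held 3642579 to 13529571 reads and 9033 to 20307 detected genes, so that a member with no read could still have reached 1.87 to 7.19 normalized counts, counting error only (3 reads). The 7 shallowest libraries were 6 VIP libraries, 2 from UCMS and 4 from control mice, and 1 control PV library; the calls that changed without them are named further on. The labels fitted the markers of each type: summed over the list of a type, the lowest library of that type exceeded the highest of the others for PV (7885 against 4703), SST (22900 against 4383) and VIP neurons (8845 against 1552). For pyramidal markers the lists overlapped. The lowest PYR library had 22310 and the highest VIP library 23770, and Camk2a, a kinase of excitatory neurons, averaged 11900 in UCMS and 12010 in control VIP libraries. Slc17a7, the glutamate transporter of the vesicles of these neurons, averaged 12970 in UCMS and 14220 in control PYR libraries, and 4998 in UCMS and 4794 in control VIP libraries. In pools of cells, fewer cells of a type and less RNA per cell cannot be told apart.

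Most members were present in every neuron type. In all, 10 members were detected in each of the 79 libraries, and 2 were detected in fewer than 40. Compared per kilobase of exon, Sema6b, a transmembrane semaphorin, was the highest member in 6 of 8 groups, with group means of 210 to 302 normalized counts per kb, and the receptor Plxna4 (90.5 to 295) was the highest in PV neurons, at 259 in UCMS and 295 in control mice. In control PYR neurons Sema6b stood at the 96.3 percentile of 16211 detected protein-coding genes. High levels were also found for the receptors Plxna1 (137 to 227), Plxna2 (107 to 139) and Plxnc1 (90.0 to 165), and the ligand Sema7a (53.3 to 213), on the same scale per kb. The lowest group means per kb belonged to Sema3b (0 to 2.82), Sema3g (0 to 10.6), Plxnb3 (2.19 to 8.01) and Sema3f (3.80 to 12.5). Sema3b was detected in 17 libraries and Sema3g in 20, and both were at 0 in all 10 control PV libraries. The summed level of the 9 plexins was 704 to 834 per kb over the 8 groups and that of the 20 semaphorins 758 to 962 per kb. The summed level of the 2 neuropilins per kb spread more widely, at 65.0 ± 24.4 in UCMS and 86.0 ± 62.5 in control VIP neurons, 57.5 ± 25.2 in UCMS and 58.4 ± 22.8 in control PYR, 24.2 ± 8.96 in UCMS and 17.5 ± 9.94 in control SST, and 20.8 ± 14.97 in UCMS and 13.6 ± 8.07 in control PV neurons (SD, n = 10, and 9 for UCMS PV neurons).

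**Figure D1:**
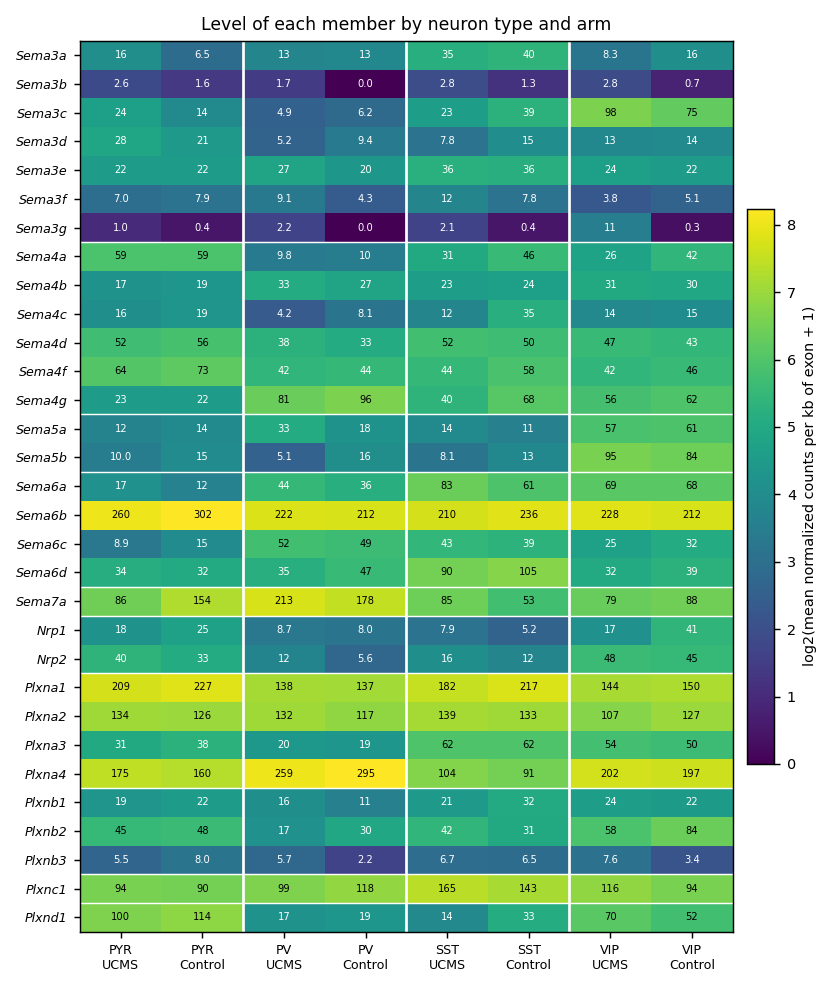
Group means of the 31 members as log2(normalized count per kilobase of exon + 1), with members as rows and the 4 neuron types of UCMS and control mice as columns. Sema6b, Plxna4, Plxna1 and Plxna2 are high in every column, while Sema3b, Sema3g and Plxnb3 are near the bottom of the scale in most columns.

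The neuron types differed in most of the tested members. In control mice, 29 members had a mean of at least 10 normalized counts, and 17 of them (58.6%) differed among the 4 types in limma's F-test with the mouse as a block at a Benjamini-Hochberg adjusted p under 0.05 over all genes, against 12.3% of all 17498 genes tested. They were 9 of 18 semaphorins, 6 of 9 plexins and both neuropilins. The share of called genes rises with level, so members were also set beside protein-coding genes in broad bands of level. The bands are wide, so members and genes of a band were not closely matched in level. Between 100 and 1000 normalized counts, 15 of 23 members were called, against 15% of 6971 genes. At 1000 or more, 2 of 3 members were called, against 51.1% of genes, and between 10 and 100, 0 of 3 members, against 5.06%. The filter dropped Sema3b and Sema3g. Over the alternative settings the number called ran from 13 to 18. Plxnb1 was lost in 10 of 21 settings, among them without control mouse U3, U4, U5, U7 or U10 (limma adjusted p = 0.0629 to 0.214). Plxna3 was lost without U2 (0.0711), and in edgeR Plxna3 (0.0628), Plxnd1 (0.0777) and Sema4a (0.0562) were lost. Plxnc1 was gained without U2 (0.0375) and Sema6c without U6 (0.0387).

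Each type was then set against the mean of the other 3 on log2(normalized count + 4), a scale that understates the change of low genes, and a member was called at an adjusted p under 0.05 and a difference of at least 2-fold. In UCMS mice 7 members were called for PYR, 10 for PV, 5 for SST and 6 for VIP neurons of 31 tested, against 4.98%, 7.37%, 2.1% and 4.15% of 17638 genes. In control PV neurons, 3 members were called higher and 7 lower, against 2.57% and 2.72% of all genes. In control VIP neurons 6 were called higher and 0 lower, against 1.78% and 1.04% of all genes. In control PYR neurons 1 was called higher and 4 lower, against 2.24% and 2.03%, and in control SST neurons 2 were called higher and 3 lower, against 1.11% and 0.68%. With edgeR, 2 members were called for UCMS SST, 3 for control SST, 3 for control PYR and 5 for control PV neurons, and with DESeq2 9 for control PYR neurons. All 4 control PYR calls in the lower direction were semaphorins, which made up 18 of the 29 members tested, and 4 of the 7 control PV calls in the lower direction were plexins. In UCMS PYR neurons 4 semaphorins were called lower and 2 higher. The UCMS PV calls in the lower direction were 4 of 20 semaphorins tested, 3 of 9 plexins and 1 of 2 neuropilins. These 3 plexins, Plxna3, Plxnb2 and Plxnd1, were among the 4 of 9 called lower in control PV neurons. The median log2 difference of the tested members in control mice was -0.96 for PV neurons, where that of all genes was -0.08, and between 0.29 and 0.43 for the other types, where that of all genes was between -0.04 and 0.04. By construction the 4 differences of a member sum to 0, so the values of the types are not separate results.

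UCMS and control mice are different animals, so each arm repeats the measurement of the other. In all, 19 calls were made in the same direction in both arms, which is 67.86% of the 28 UCMS calls and 73.08% of the 26 control calls. Of the 26 control calls, 25 had the same direction in UCMS mice, and the exception was Sema3a in PYR neurons. Among all 116 pairs of a member and a type tested in both arms, called or not, 91 had the same direction. The differences of a member depend on each other across types, as said above, so these calls and pairs are not independent. How often the calls of other genes repeat was not counted.

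Of all 54 calls, 30 held under each of the 21 alternative settings run, 18 of them in UCMS and 12 in control mice, and 15 were lost when some 1 mouse was left out. Among those that held under every setting were Sema5b and Sema5a in VIP, Sema4g in PV and PYR, Sema6d in SST and Plxnd1 in PYR neurons, each in both arms. Without the 7 shallowest, Sema3c, Sema5a and Sema5b stayed called for control VIP neurons, while Nrp2 (log2 difference 1.11, limma adjusted p = 0.633), Plxnb2 (1.67, 0.110) and Sema6a (1.44, 0.141) were lost. The same fit called Nrp2 higher in control PYR neurons (1.72, 0.0328), Sema4a higher in control PYR neurons (1.96, 0.0204), Nrp1 lower in control SST neurons (-2.19, 0.0242) and Plxna3 higher in UCMS SST neurons (1.11, 0.0358). It lost 2 UCMS calls, Sema3d in PV (-1.79, 0.0755) and Sema6a in SST neurons (1.36, 0.0584), and it added Plxnc1 to the F-test (0.0232). With the protein-coding share of reads as a covariate, Nrp2 (limma adjusted p = 0.186), Plxnb2 (0.295), Sema3c (0.268) and Sema6a (0.267) were lost in control VIP neurons, and Sema7a was called lower there (-1.86, 0.0433), so 3 members were called again.

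**Figure D2:**
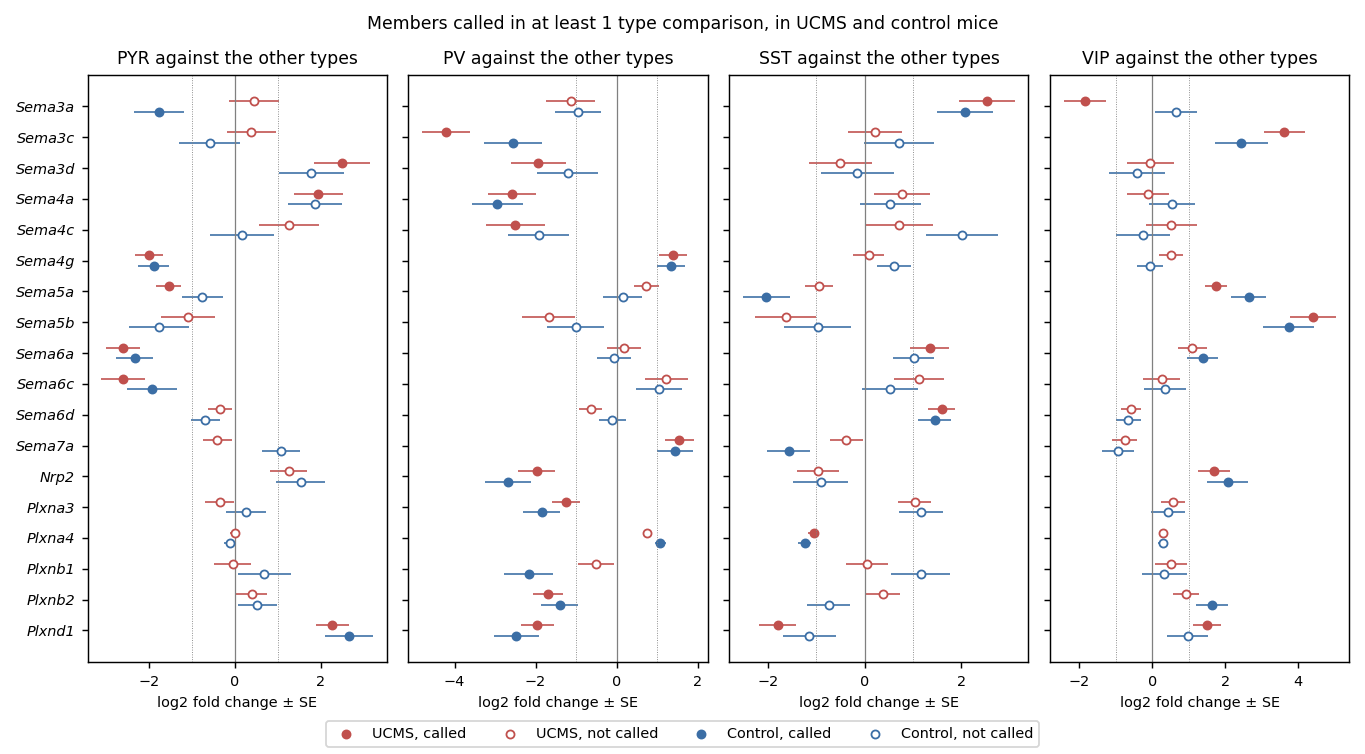
Log2 difference (± SE) of each neuron type from the mean of the other 3 types, on log2(normalized count + 4), for the members called in at least 1 of these comparisons; UCMS mice in red above control mice in blue, filled where called, with dotted lines at a 2-fold difference. The filled points of PV neurons lie mostly below 0, and those of VIP neurons mostly above.

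The sequences just upstream of the RefSeq start are shown for 1 member called higher in each type: Plxnd1 for PYR, Sema7a for PV, Sema6d for SST and Sema5a for VIP neurons. They were taken by the largest test statistic in control mice among members whose window lay outside the annotated gene, save for the last 3 bases of the Sema5a window. They are 250 bases long in GRCm38.p6, written 5′ to 3′ on the strand of the gene, with each GGGCGG or CCGCCC (the GC box, which the Sp1 family binds, on either strand, neighbouring copies may overlap) in capitals. Plxnd1 is at chr6:115995006-115995255 on the minus strand, Sema7a at chr9:57939862-57940111, Sema6d at chr2:124089719-124089968 (the first of 2 starts in the table) and Sema5a at chr15:32244563-32244812, these on the plus strand.
Plxnd1: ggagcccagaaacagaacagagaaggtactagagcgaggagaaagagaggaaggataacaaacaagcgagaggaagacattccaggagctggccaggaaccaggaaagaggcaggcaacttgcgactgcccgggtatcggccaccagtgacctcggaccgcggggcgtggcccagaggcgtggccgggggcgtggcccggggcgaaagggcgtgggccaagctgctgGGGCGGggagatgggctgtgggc
Sema7a: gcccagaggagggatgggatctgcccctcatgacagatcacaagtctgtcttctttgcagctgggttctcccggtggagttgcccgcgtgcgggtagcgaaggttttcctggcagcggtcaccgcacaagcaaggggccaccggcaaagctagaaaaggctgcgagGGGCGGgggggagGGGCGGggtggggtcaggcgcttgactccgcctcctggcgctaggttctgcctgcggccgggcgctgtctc
Sema6d: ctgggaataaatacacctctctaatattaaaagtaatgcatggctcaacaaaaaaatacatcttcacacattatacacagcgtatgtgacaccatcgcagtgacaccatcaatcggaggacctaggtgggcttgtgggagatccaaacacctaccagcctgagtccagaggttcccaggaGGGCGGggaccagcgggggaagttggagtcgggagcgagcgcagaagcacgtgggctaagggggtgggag
Sema5a: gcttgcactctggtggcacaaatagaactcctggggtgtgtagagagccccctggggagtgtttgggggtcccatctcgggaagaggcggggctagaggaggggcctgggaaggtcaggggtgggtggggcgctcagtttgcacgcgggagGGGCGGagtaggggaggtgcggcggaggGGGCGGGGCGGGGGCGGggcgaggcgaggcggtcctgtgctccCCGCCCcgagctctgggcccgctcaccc
The letters occur 1 time in Plxnd1 and in Sema6d, 2 times in Sema7a and 5 times in Sema5a. They occur in 72.97% of the 37 rows of the 26 members in the promoter table and in 32.74% of all 32851 rows, and the median number of CG pairs is 13 and 6. A match of letters is a description of the window and not a binding site.

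Among the secreted class 3 ligands, Sema3a was highest in SST neurons and Sema3c in VIP neurons. Sema3a (chr5:13125414-13602565), which repels axons through Nrp1 and A-type plexins, had 201.3 to 706 normalized counts in UCMS SST libraries (median 524), against medians of 158 for PYR, 36.7 for PV and 81.2 for VIP neurons. In control mice it had 106 to 1241 in SST libraries (median 619), against medians of 66.0 for PYR, 186 for PV and 219.9 for VIP neurons. Within a mouse, SST exceeded PYR in 9 of 10 UCMS and 10 of 10 control mice, PV in 7 of 9 and 10 of 10, and VIP in 10 of 10 and 8 of 10, although the ranges overlapped. The log2 difference of SST neurons was 2.53 ± 0.58 (SE) in UCMS and 2.08 ± 0.57 in control mice (limma adjusted p = 0.00203 and 0.0190). The control call was lost without control mouse U3 (adjusted p = 0.0578) or U8 (0.0756), and the UCMS call was lost in edgeR (adjusted p = 0.203). Sema3a was not called for PYR neurons in UCMS mice (0.45 ± 0.58, limma adjusted p = 0.789) and was called lower in control mice (-1.77 ± 0.57, 0.0399). That control call was lost in 11 of 21 settings, among them without U1, U2, U4, U5, U7, U8 or U9 (0.0544 to 0.158). Sema3a was called lower in UCMS VIP neurons (-1.84 ± 0.58, 0.0361) and not in control VIP neurons (0.65 ± 0.57, 0.643). That UCMS call was also lost in 11 of 21 settings, among them edgeR (0.552), DESeq2 (0.232) and without U601, U603, U605, U606, U608 or U609 (0.0609 to 0.142).

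Sema3c (chr5:17574281-17730268), which acts through neuropilins and Plxnd1, had 278 to 1282 normalized counts in UCMS VIP libraries (median 600.4), against medians of 209 for PYR, 0 for PV and 165 for SST neurons. In control mice the VIP libraries had 0 to 1496 (median 536), against medians of 113 for PYR, 32.1 for PV and 206 for SST neurons. VIP and PV libraries did not overlap in UCMS mice, and Sema3c was at 0 in 5 of 9 UCMS and 4 of 10 control PV libraries. The log2 difference was 3.62 ± 0.57 in UCMS and 2.44 ± 0.72 in control VIP neurons (limma adjusted p = 2.43e-07 and 0.0251), and -4.21 ± 0.59 in UCMS and -2.56 ± 0.72 in control PV neurons (2.95e-09 and 0.00978). The control VIP call was lost in 9 of 21 settings, among them without U1, U3, U5, U6, U7 or U9 (limma adjusted p = 0.0606 to 0.125), and the control PV call in edgeR (0.113), with no filter (0.0551) and without U9 (0.0860). Sema3d was called in UCMS mice, higher in PYR (2.49 ± 0.65, limma adjusted p = 0.0039) and lower in PV neurons (-1.94 ± 0.68, 0.0474), and was not called in control mice (1.78 ± 0.75 and -1.21 ± 0.75; adjusted p = 0.184 and 0.429). Its PV call was lost in 14 of 21 settings, among them without the block by mouse (0.124), in edgeR (0.191) and without U602, U603, U604, U605, U608 or U610 (0.0595 to 0.170). Sema3e, the ligand that binds Plxnd1 without a neuropilin, had group medians of 138 to 348 normalized counts and was called in no type comparison. Sema3f, the ligand of Nrp2, had group medians between 0 and 57.0 normalized counts in libraries of the 8 groups, was detected in 53 of 79 libraries and was not called either.

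Of the 6 class 4 ligands, Sema4g and Sema4a divided PV from PYR neurons, in opposite directions. Sema4g (chr19:44989101-45003397) had 489 to 924 normalized counts in UCMS PV libraries (median 676), against 0.858 to 497 for PYR (median 135), 215 to 469.6 for SST (median 349) and 129.9 to 762 for VIP neurons (median 492). Control PV libraries had 551 to 1255 (median 798), against 45.8 to 469 for PYR (median 175), 346 to 1175 for SST (median 549.8) and 51.8 to 1367 for VIP neurons (median 506). PV neurons exceeded PYR neurons in 9 of 9 UCMS and 10 of 10 control mice; the ranges did not overlap between PV and SST libraries in UCMS mice and between PV and PYR libraries in control mice. In log2 terms the difference was 1.40 ± 0.34 in UCMS and 1.35 ± 0.35 in control PV neurons (limma adjusted p = 0.00156 and 0.00458), and -2.003 ± 0.33 in UCMS and -1.90 ± 0.35 in control PYR neurons (5.05e-07 and 1.43e-05).

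Sema4a (chr3:88435959-88461182), which binds plexins of the B and D families, ran the other way. It had 0 to 171 normalized counts in UCMS PV libraries (median 36.1), against medians of 297 for PYR, 152 for SST and 124 for VIP neurons. It had 0 to 192 in control PV libraries (median 43.6), against medians of 322 for PYR, 264 for SST and 113 for VIP neurons. In no mouse of either arm did the PV library exceed the PYR library. Relative to the other types the log2 difference was -2.59 ± 0.60 in UCMS and -2.94 ± 0.63 in control PV neurons (limma adjusted p = 5.70e-04 and 1.98e-04), and 1.94 ± 0.57 in UCMS and 1.86 ± 0.63 in control PYR neurons, of which only the UCMS value was called (0.0137 and 0.0509). The UCMS PYR call was lost in edgeR (0.0618) and with detected genes as a covariate (0.0714), and the control PYR value passed in 6 of 21 settings, among them without U1 (0.0492). Sema4c, a ligand of Plxnb2, was called lower in UCMS PV neurons (-2.50 ± 0.73, limma adjusted p = 0.0111) and not in control PV neurons (-1.92 ± 0.75, 0.106). The UCMS call was lost in edgeR (0.0866), with detected genes (0.121) and with the protein-coding share (0.104) as a covariate, and the control value passed without U9 (0.0485). An antisense transcript, D430040D24Rik, shares 7.27% of its exon bases, and the labels do not say whether reads were counted by strand. Sema4d, the ligand of Plxnb1, had group medians of 261 to 394 normalized counts, and Sema4b and Sema4f of 81.3 to 174 and 153 to 359.5; these 3 were called in no type comparison.

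Both class 5 semaphorins, transmembrane proteins with thrombospondin repeats, were highest in VIP neurons. Sema5a (chr15:32244810-32696341) had 258 to 1471 normalized counts in UCMS VIP libraries (median 1267), against medians of 209.5 for PYR, 599.8 for PV and 220.1 for SST neurons. It had 472 to 2311 in control VIP libraries (median 1095), against medians of 213 for PYR, 291 for PV and 165 for SST neurons. In control mice the VIP library exceeded each of the other 3 in 10 of 10 mice, and in UCMS mice it exceeded PYR in 9 of 10, PV in 7 of 9 and SST in 9 of 10. The log2 difference of VIP neurons was 1.75 ± 0.29 in UCMS and 2.65 ± 0.48 in control mice (limma adjusted p = 1.02e-06 and 3.57e-05). Sema5a was also lower in SST neurons, at -0.94 ± 0.29 in UCMS mice (adjusted p = 0.0412, under 2-fold) and -2.04 ± 0.48 in control mice (0.00406). That control call was lost in edgeR (-1.34, adjusted p = 0.512), in DESeq2 (-1.34, 0.104) and without control mouse U10 (0.0748), and without UCMS mouse U601 or U609 the UCMS difference passed 2-fold (-1.11 each). In PYR neurons Sema5a was called lower in UCMS mice (-1.54 ± 0.29, limma adjusted p = 1.26e-05) and not in control mice (-0.76 ± 0.48, 0.480).

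Sema5b (chr16:35541145-35664732) was the member with the largest log2 difference in either arm. It had 479 to 909 normalized counts in UCMS VIP libraries (median 676), against highest values of 279.7 for PYR, 84.3 for PV and 157 for SST neurons, so the VIP range lay apart from all the others. In control mice the VIP libraries had 311 to 1018 (median 538), against medians of 17.98 for PYR, 44.9 for PV and 52.7 for SST neurons, whose highest values of 462, 415 and 408.5 reached into the VIP range. Set against the other 3 types, the log2 difference was 4.41 ± 0.62 in UCMS and 3.74 ± 0.70 in control VIP neurons (limma adjusted p = 6.98e-09 and 2.90e-05). Of the markers of other cells, the astrocyte, microglial and vascular sums averaged highest in VIP libraries, the pyramidal sum was higher there than in PV libraries, and the oligodendrocyte sum averaged lowest. The sum of 6 astrocyte markers, all detected, was 1317 to 2741 in UCMS and 1044 to 3359 in control VIP libraries, against control means of 1163 ± 429 for PYR, 1391 ± 563 for PV and 1369 ± 785 for SST neurons (SD, n = 10 each). The UCMS means were 932 ± 199 for PYR, 1323 ± 420.5 for PV (n = 9) and 1368 ± 483 for SST neurons. The sum of 5 pyramidal markers, all detected, was 14830 to 19860 in UCMS and 13790 to 23770 in control VIP libraries, against 4965 to 11910 in UCMS and 5742 to 11260 in control PV libraries and 7890 to 13080 in UCMS and 7485 to 14440 in control SST libraries. The sum of the oligodendrocyte markers averaged 1251 ± 557 in UCMS and 1606 ± 1502 in control VIP libraries, against control means of 2193 ± 1180 for PYR, 1828 ± 680 for PV and 2343 ± 967 for SST neurons (SD, n = 10 each). The UCMS means were 1610 ± 388 for PYR, 1734 ± 976 for PV (n = 9) and 3165 ± 2027 for SST neurons. The microglial sum averaged 520 ± 335 in UCMS and 573 ± 283 in control VIP libraries (SD, n = 10 each). The means of the other types were 328 to 447 in UCMS and 258 to 410 in control mice. The endothelial and mural sum averaged 483 in UCMS and 391 in control VIP libraries. Its means in the other types were 261 to 273 in UCMS and 243 to 304 in control mice. The part of these cells in the VIP results was not tested.

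Of the class 6 ligands, Sema6a and Sema6c were lowest in PYR neurons and Sema6d was highest in SST neurons. Sema6a, a transmembrane ligand of Plxna2 and Plxna4, had 2.22 to 513 normalized counts in UCMS PYR libraries (median 96.2), against medians of 351 for PV, 688 for SST and 545 for VIP neurons. It had 11.5 to 206 in control PYR libraries (median 116), against medians of 264 for PV, 509.9 for SST and 604.3 for VIP neurons. PYR and VIP libraries of control mice did not overlap, and in UCMS mice all 3 ranges overlapped that of PYR neurons. The log2 difference was -2.61 ± 0.40 in UCMS and -2.34 ± 0.42 in control PYR neurons (limma adjusted p = 1.56e-06 and 6.92e-06). Sema6a was also called higher in UCMS SST neurons (1.34 ± 0.40, limma adjusted p = 0.0412) and in control VIP neurons (1.38 ± 0.42, 0.0335). The UCMS SST call was lost in 11 of 21 settings, among them edgeR (0.109) and without U603, U604, U605, U607, U608 or U610 (0.0513 to 0.193). The control VIP call was lost in 8 of 21, among them without U2, U5, U6, U7, U8 or U9 (0.0518 to 0.0911).

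Sema6c (chr3:95160457-95174024) had 0 to 159.5 normalized counts in UCMS PYR libraries (median 30.4), against medians of 278.5 for PV, 287 for SST and 146 for VIP neurons. It had 0 to 302 in control PYR libraries (median 72.7), against medians of 231 for PV, 166 for SST and 186 for VIP neurons. PYR libraries were the low ones in both arms, with overlap in every pair. In log2 terms the difference was -2.61 ± 0.51 in UCMS and -1.93 ± 0.58 in control PYR neurons (limma adjusted p = 2.90e-05 and 0.0200). The control call is weak: the F-test over types gave an adjusted p of 0.0683, and the call was lost in edgeR (0.223), with the protein-coding share of reads as a covariate (0.110), and without control mouse U3 (0.105), U4 (0.0562) or U7 (0.0634).

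Sema6d (chr2:124089969-124667770), a ligand of Plxna1, had 709 to 1372 normalized counts in UCMS SST libraries (median 927), against medians of 356 for PYR, 244 for PV and 324 for VIP neurons. It had 277 to 2759 in control SST libraries (median 940.5), against medians of 317 for PYR, 415 for PV and 305 for VIP neurons. In UCMS mice the SST library exceeded PYR in 10 of 10, PV in 9 of 9 and VIP in 10 of 10 mice; in control mice it exceeded them in 9, 7 and 7 of 10. Relative to the other types the log2 difference was 1.59 ± 0.28 in UCMS and 1.45 ± 0.34 in control SST neurons (limma adjusted p = 4.63e-06 and 0.00272). Sema6b had group means of 832 to 1198 normalized counts and was not called in any type.

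Sema7a (chr9:57940112-57962865), the lipid-anchored ligand of Plxnc1 and beta1 integrins, was highest in PV neurons. It had 149 to 1059 normalized counts in UCMS PV libraries (median 725), against medians of 252.5 for PYR, 229.5 for SST and 220.0 for VIP neurons. Control PV libraries had 363 to 974 (median 521), against medians of 395 for PYR, 200 for SST and 264 for VIP neurons. The PV library exceeded the PYR library in 9 of 9 UCMS and 6 of 10 control mice, and the SST library in 8 of 9 and 10 of 10, with overlapping ranges. Set against the other 3 types, the log2 difference was 1.55 ± 0.36 in UCMS and 1.44 ± 0.45 in control PV neurons (limma adjusted p = 5.27e-04 and 0.0243). In SST neurons it was -0.39 ± 0.34 in UCMS mice (adjusted p = 0.756) and -1.57 ± 0.45 in control mice (0.0257). Both control calls are weak: the PV call was lost with no filter (adjusted p = 0.0682), in edgeR (0.0801) and without control mouse U4 (0.0773), U5 (0.0511) or U8 (0.0561), and the SST call with no filter (0.0821), in edgeR (0.126) and without control mouse U2 (0.085), U4 (0.0795), U5 (0.0848) or U6 (0.0687).

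**Figure D3:**
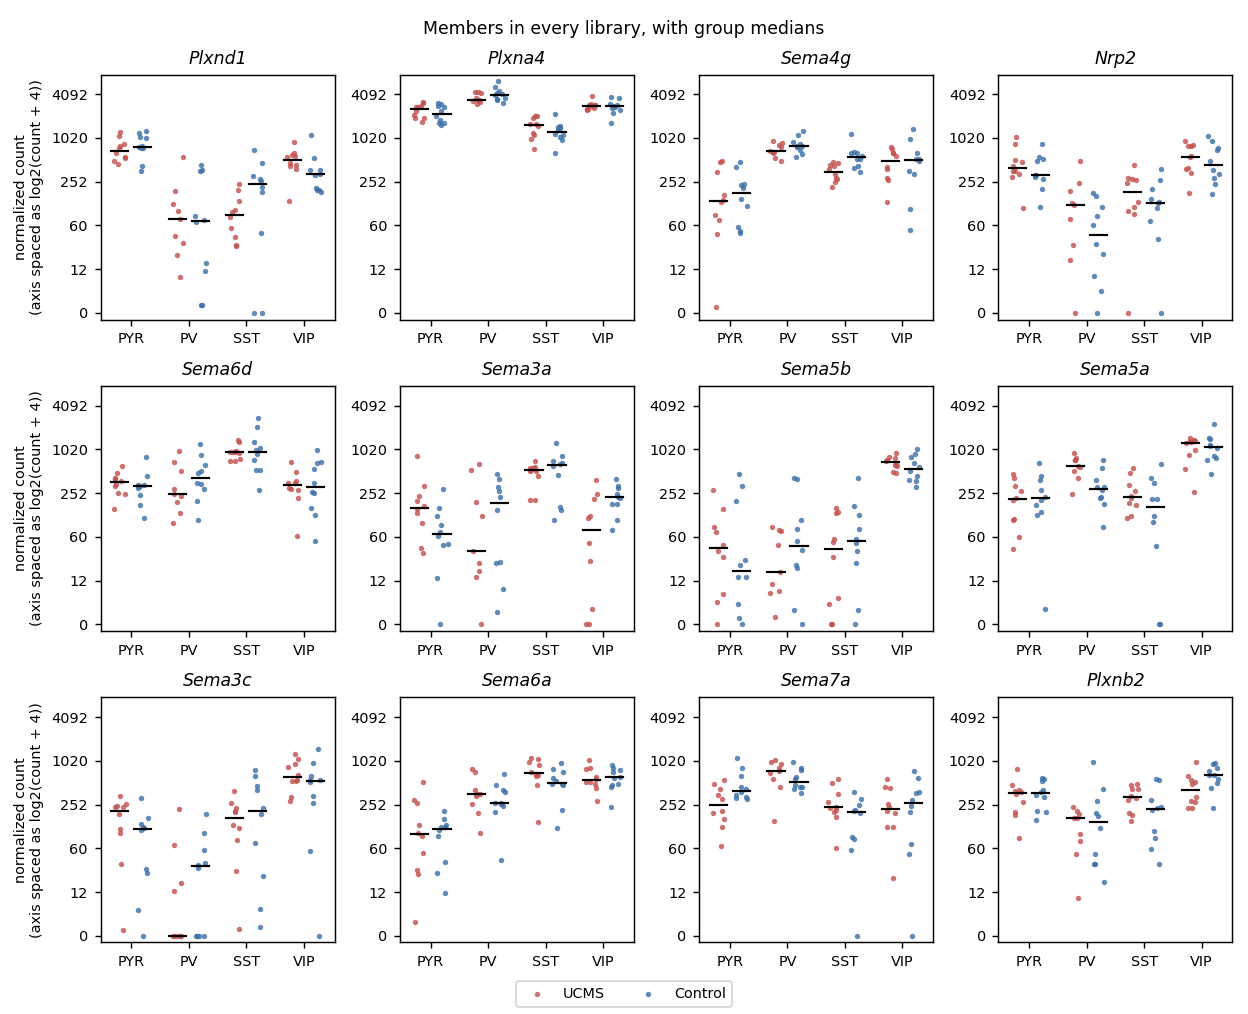
Normalized counts of 12 members in every library (points) with group medians (bars), by neuron type, UCMS in red left of control in blue; the axis is spaced as log2(count + 4). Sema5b and Sema5a stand highest in VIP, Plxnd1 in PYR, Sema4g, Sema7a and Plxna4 in PV, and Sema6d and Sema3a in SST neurons.

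The neuropilins, the ligand-binding coreceptors of class 3, were lowest in PV and SST neurons. Nrp2 (chr1:62703285-62818695) had 174 to 934 normalized counts in UCMS VIP libraries (median 561), against medians of 390.4 for PYR, 117 for PV and 188 for SST neurons. It had 167.5 to 1083 in control VIP libraries (median 432), against medians of 314 for PYR, 45.7 for PV and 127.5 for SST neurons. The VIP library exceeded the PV library in 9 of 9 UCMS and 10 of 10 control mice, and the PYR library in 6 of 10 and 7 of 10. The log2 difference was 1.69 ± 0.43 in UCMS and 2.07 ± 0.57 in control VIP neurons (limma adjusted p = 0.00605 and 0.0126), and -1.97 ± 0.45 in UCMS and -2.69 ± 0.57 in control PV neurons (8.59e-04 and 1.70e-04); the UCMS PV call was lost in edgeR (0.0942). The UCMS VIP call was lost in edgeR (0.101) and with a pseudocount of 1 (0.0787), and the control VIP call without the 7 shallowest libraries and with the protein-coding share as a covariate, as given above. Nrp1, the binding partner of Sema3a, differed among control types in the F-test (limma adjusted p = 0.00336) but was called for no single type; in 7 of 21 settings it was called lower for control SST neurons (-1.67 to -2.22). Its medians in UCMS mice were 173 for PYR, 58.5 for PV, 78.1 for SST and 144 for VIP neurons. In control mice they were 236.5 for PYR, 59.1 for PV, 37.3 for SST and 180.0 for VIP neurons.

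Of the receptors, Plxnd1 (chr6:115954811-115995005), the plexin of Sema3e, was highest in PYR neurons, with VIP neurons next. It had 451 to 1214 normalized counts in UCMS PYR libraries (median 679), against medians of 75.2 for PV, 86.2 for SST and 508 for VIP neurons. It had 358 to 1284 in control PYR libraries (median 767), against medians of 70.3 for PV, 234 for SST and 319 for VIP neurons. PYR and SST libraries of UCMS mice did not overlap, and the PYR library exceeded the PV library in 8 of 9 UCMS and 10 of 10 control mice and the VIP library in 8 of 10 of each arm. In log2 terms the difference was 2.26 ± 0.39 in UCMS and 2.65 ± 0.55 in control PYR neurons (limma adjusted p = 1.59e-06 and 2.47e-04). In PV neurons it was -1.96 ± 0.41 in UCMS and -2.48 ± 0.55 in control mice (1.04e-04 and 6.33e-04), the control call being lost in edgeR (0.176). In UCMS mice Plxnd1 was further called lower in SST (-1.81 ± 0.39, limma adjusted p = 5.18e-04) and higher in VIP neurons (1.503 ± 0.39, 0.00535); the control values were -1.14 ± 0.55 (0.396) and 0.97 ± 0.55 (0.414).

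Plxna4 (chr6:32144268-32588192), a receptor for Sema3a with Nrp1 and for Sema6a, separated PV from SST neurons. It had 2982 to 4406 normalized counts in UCMS PV libraries (median 3376), against medians of 2554 for PYR, 1536 for SST and 2855 for VIP neurons. It had 3089 to 6168 in control PV libraries (median 4022), against medians of 2210 for PYR, 1233 for SST and 2779 for VIP neurons. The SST libraries had 715 to 2070 in UCMS and 628 to 2210 in control mice, and PV and SST libraries did not overlap in either arm. The log2 difference of PV neurons was 0.76 ± 0.12 in UCMS mice, which is under 2-fold, and 1.08 ± 0.14 in control mice (limma adjusted p = 1.04e-07 and 1.60e-11). That of SST neurons was -1.06 ± 0.11 in UCMS and -1.25 ± 0.14 in control mice (3.46e-14 and 2.25e-14); the UCMS value came just under 2-fold in edgeR (-0.997), without UCMS mouse U602 (-0.91) and with the protein-coding share as a covariate (-0.98). An antisense transcript, Plxna4os3, shares 0.780% of the exon bases of Plxna4.

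Of the other A plexins, Plxna3 alone was called for a type. Plxna1, a receptor for Sema6d, differed among control types in the F-test (limma adjusted p = 0.00616), with log2 differences of 0.47 in UCMS and 0.49 in control PYR neurons and of -0.39 in UCMS and -0.50 in control PV neurons, all under 2-fold; the antisense transcript Gm26811 shares 10.7% of its exon bases. Plxna2, a receptor for Sema6a, had group means of 1835 to 2394 normalized counts. Plxna3, which with Nrp2 transmits Sema3f, was called lower in PV neurons of both arms, at -1.25 ± 0.35 in UCMS and -1.85 ± 0.46 in control mice (limma adjusted p = 0.00723 and 0.00205); the UCMS call was lost with detected genes (0.0781) and with the protein-coding share (0.0731) as a covariate.

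Among B plexins, Plxnb2 (chr15:89155549-89180788), a receptor for Sema4c, had 224 to 972 normalized counts in UCMS VIP libraries (median 406), against medians of 365 for PYR, 162 for PV and 321 for SST neurons. It had 222 to 962 in control VIP libraries (median 654.5), against medians of 362 for PYR, 147 for PV and 219 for SST neurons. PV libraries had the lowest median in both arms. They ran from 9.25 to 231 in UCMS mice and from 17.8 to 983 in control mice, where the PV library of mouse U3 was the highest of all control libraries and the PV mean of 230 ± 294 was close to the SST mean of 238 ± 191 (SD, n = 10 each). Relative to the other types the log2 difference was -1.69 ± 0.37 in UCMS and -1.41 ± 0.45 in control PV neurons (limma adjusted p = 2.21e-04 and 0.0295). The control PV call was lost in edgeR (0.129), with no filter (0.0551) and without U1 (0.0588), U2 (0.0670), U5 (0.138), U7 (0.107) or U9 (0.136). In VIP neurons it was 0.93 ± 0.35 in UCMS mice, not called, and 1.63 ± 0.45 in control mice (0.0959 and 0.0121). The control VIP call was lost without the 7 shallowest libraries (0.110) and with the protein-coding share as a covariate (0.295). Both settings left 3 members called for control VIP neurons, in place of 6. Plxnb1, the receptor of Sema4d, was called lower in control PV neurons (-2.17 ± 0.61, limma adjusted p = 0.01002) and not in UCMS PV neurons (-0.51 ± 0.45, 0.558). The control call was lost in edgeR (0.435), in DESeq2 (0.115) and without U5 (0.0791) or U10 (0.0731). Plxnc1, the receptor of Sema7a, was higher in UCMS SST neurons by less than 2-fold (0.74 ± 0.17, limma adjusted p = 0.00186) and was 0.59 ± 0.24 in control mice (0.246).

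Of 50 listed partners (coreceptors such as L1-family adhesion molecules and proteoglycans, and effectors downstream of plexins), 46 were tested in control mice and 15 (32.6%) differed among types in the same F-test, against 12.3% of all genes. Unlike the members, the partners were not set beside genes in bands of level. At 1000 or more normalized counts, where partners such as Nrcam and Chl1 lie, 51.1% of protein-coding genes were called. The part of level in the share of the partners was not tested. In the type comparisons, 0 were called higher and 4 lower in control PYR neurons, 3 higher and 1 lower in PV, 1 higher and 0 lower in SST, and 1 higher and 1 lower in VIP neurons. In both directions together these are 8.7%, 8.7%, 2.17% and 4.35% of the partners tested. All genes gave 2.24% higher and 2.03% lower in PYR, 2.57% and 2.72% in PV, 1.11% and 0.68% in SST, and 1.78% and 1.04% in VIP neurons. Acan, the aggrecan of perineuronal nets, had 1.19 to 549.7 normalized counts in UCMS PV libraries (median 151) and 69.5 to 939 in control PV libraries (median 169). Its log2 difference in PV neurons was 3.04 ± 0.76 in UCMS and 4.51 ± 0.76 in control mice (limma adjusted p = 0.00173 and 7.32e-07). The effectors Limk1 and Rnd2 were both called higher in PV and lower in PYR neurons. Limk1, the kinase that phosphorylates cofilin, was higher in PV neurons (1.72 ± 0.22 in UCMS and 1.54 ± 0.24 in control mice, limma adjusted p = 5.41e-11 and 6.64e-08) and lower in PYR neurons (-1.38 ± 0.21 in UCMS and -1.11 ± 0.24 in control mice, 4.41e-08 and 2.65e-04). Rnd2, a protein known from neuron migration, was likewise higher in PV neurons (3.97 ± 0.58 in UCMS and 3.13 ± 0.55 in control mice, limma adjusted p = 1.02e-08 and 3.56e-06) and lower in PYR neurons (-3.58 ± 0.56 in UCMS and -2.89 ± 0.55 in control mice, 7.34e-08 and 2.92e-05). Chl1, an adhesion molecule that binds Nrp1, was higher in SST neurons (1.31 ± 0.13 in UCMS and 1.16 ± 0.13 in control mice, limma adjusted p = 1.75e-12 and 1.49e-13). Ptprz1, a receptor phosphatase that astrocytes and oligodendrocyte precursors also make in abundance, had 1337 to 3131 normalized counts in UCMS VIP libraries (median 1835) and 975 to 3180 in control VIP libraries (median 2215). Its log2 difference in VIP neurons was 1.97 ± 0.20 in UCMS and 2.13 ± 0.27 in control mice (limma adjusted p = 8.62e-16 and 1.00e-10). The sum of 4 precursor markers averaged 511 in UCMS and 394 in control VIP libraries. It averaged 309, 186.5 and 323 in UCMS and 304, 281 and 367 in control PYR, PV and SST libraries. The part of these sums and of the astrocyte sums above in the Ptprz1 value was not tested.

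Stress moved no member past the threshold in any neuron type. UCMS was set against control within each type with limma, and 0 of 29 members were called in PYR, PV and SST neurons each and 0 of 30 in VIP neurons at an adjusted p under 0.05. Of all genes, 13 of 16092 (0.0808%) were called in PYR neurons, and 0 (0%) of 16847, 17108 and 19451 in PV, SST and VIP neurons. Taken over the mean of the types of each mouse, 0 of 29 members and 0% of 17427 genes were called, and the same numbers held for a stress effect that differs between types. At an unadjusted p under 0.05 stood 2 members in PYR, 1 in PV, 2 in SST and 2 in VIP neurons, 6.9%, 3.45%, 6.9% and 6.67% of the members tested, where all genes gave 6.36%, 3.74%, 5.72% and 5.15%. For the mean over types and for the difference between types it was 2 members each (6.9%), where all genes gave 6.8% and 4.68%. With edgeR, 0 members were called in any type and 2, 1, 1 and 2 had an unadjusted p under 0.05, where 0, 0, 0 and 896 of all genes were called in PYR, PV, SST and VIP neurons. With DESeq2, 0 members were called and 2, 1, 2 and 2 had an unadjusted p under 0.05, where 32, 46, 30 and 83 of all genes were called. In none of the 124 pairs of a member and a neuron type did the UCMS and control ranges separate. Separation was not counted over all genes, so this is no trait particular to the members. The precision was limited: the standard error of a log2 fold change ran from 0.13 to 1.02, with a median of 0.54, and 13 of the 117 tests had a fold change of at least 2 in either direction.

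The median log2 fold change (UCMS over control) of the members was -0.08 in PYR, 0.11 in PV, 0.07 in SST and 0.10 in VIP neurons, where that of all genes was 0.10, 0.05, 0.15 and 0.17. Library make-up differed between the arms, and not in PYR neurons alone. Protein-coding genes took 64.2% ± 2.26 of reads in UCMS and 58.7% ± 3.90 in control PYR libraries, and 15690 ± 1948 genes were detected in UCMS and 13920 ± 881 in control PYR libraries (SD, n = 10 each). In SST libraries 15130 ± 1992 genes were detected in UCMS and 13640 ± 2845 in control mice, and in VIP libraries 15340 ± 2865 and 13610 ± 2671. VIP libraries averaged 8840000 reads in UCMS and 7493000 in control mice. The part of these differences in the PYR, SST and VIP values was not tested.

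The members with the smallest p in each type are given by value. Sema7a had 64.4 to 560.2 normalized counts in UCMS PYR libraries (median 252.5), against 303 to 1109 in control PYR libraries (median 395), a log2 fold change of -0.94 ± 0.33 (limma p = 0.00407, adjusted p = 0.634). Of the UCMS libraries, 7 of 10 were under the control median. Sema3a had 34.8 to 815 in UCMS PYR libraries (median 158), against 0 to 291 in control PYR libraries (median 66.0), or 1.39 ± 0.62 (limma p = 0.0253, adjusted p = 0.764), with 8 of 10 UCMS libraries above the control median. In VIP neurons the same gene had the opposite sign. Sema3a had 0 to 379 in UCMS VIP libraries (median 81.2), against 76.5 to 399 in control VIP libraries (median 219.9), or -2.14 ± 0.85 (limma p = 0.0117, adjusted p = 0.932), with 8 of 10 UCMS libraries under the control median. This fold change was -0.92 in edgeR and -0.96 in DESeq2. The test of whether the stress effect differs between types gave Sema3a p = 0.00533 and Sema7a p = 0.0440, with a limma adjusted p of 0.9997 for both.

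Sema5a had 242 to 908 normalized counts in UCMS PV libraries (median 599.8), against 82.3 to 732 in control PV libraries (median 291), or 1.02 ± 0.41 (limma p = 0.0124, adjusted p = 0.982), with 8 of 9 UCMS libraries above the control median. In SST neurons it had 112 to 565 in UCMS libraries (median 220.1), against 0 to 631 in control libraries (median 165), or 1.39 ± 0.63 (limma p = 0.0285, adjusted p = 0.852); that fold change was 0.43 in edgeR, 0.36 in DESeq2 and 0.89 without control mouse U1 or U10. Over the mean of the types, Sema5a was at 0.56 ± 0.25 (limma p = 0.0283, adjusted p = 0.714), or 0.31 without control mouse U1, and Sema3e at 0.66 ± 0.33 (p = 0.0485, adjusted p = 0.733). The Sema3e value was 0.29 with detected genes as a covariate, 0.31 without the 7 shallowest libraries and 0.16 with the protein-coding share as a covariate. Sema4g had 215 to 469.6 in UCMS SST libraries (median 349), against 346 to 1175 in control SST libraries (median 549.8), or -0.70 ± 0.35 (limma p = 0.0457, adjusted p = 0.859). All 10 UCMS libraries lay under the control median. Nrp1 had 0 to 649.5 in UCMS VIP libraries (median 144), against 70.2 to 1286 in control VIP libraries (median 180.0), or -1.42 ± 0.70 (limma p = 0.0423, adjusted p = 0.932), and -0.91 without UCMS mouse U607. Plxnb1 had 20.8 to 300.3 in UCMS PV libraries (median 133), against 0 to 319 in control PV libraries (median 73.3), or 1.57 ± 0.90 (limma p = 0.0826, adjusted p = 0.982); it was 0.56 in edgeR, 0.55 in DESeq2 and 1.03 with a pseudocount of 16. In every one of these pairs the ranges of UCMS and control libraries overlapped. Among the partners, 0 of 46 to 48 were called in any stress comparison, and 3, 2, 0 and 3 had an unadjusted p under 0.05 in PYR, PV, SST and VIP neurons. These are 6.38%, 4.17%, 0% and 6.38% of the partners tested, where all genes gave 6.36%, 3.74%, 5.72% and 5.15%.

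**Figure D4:**
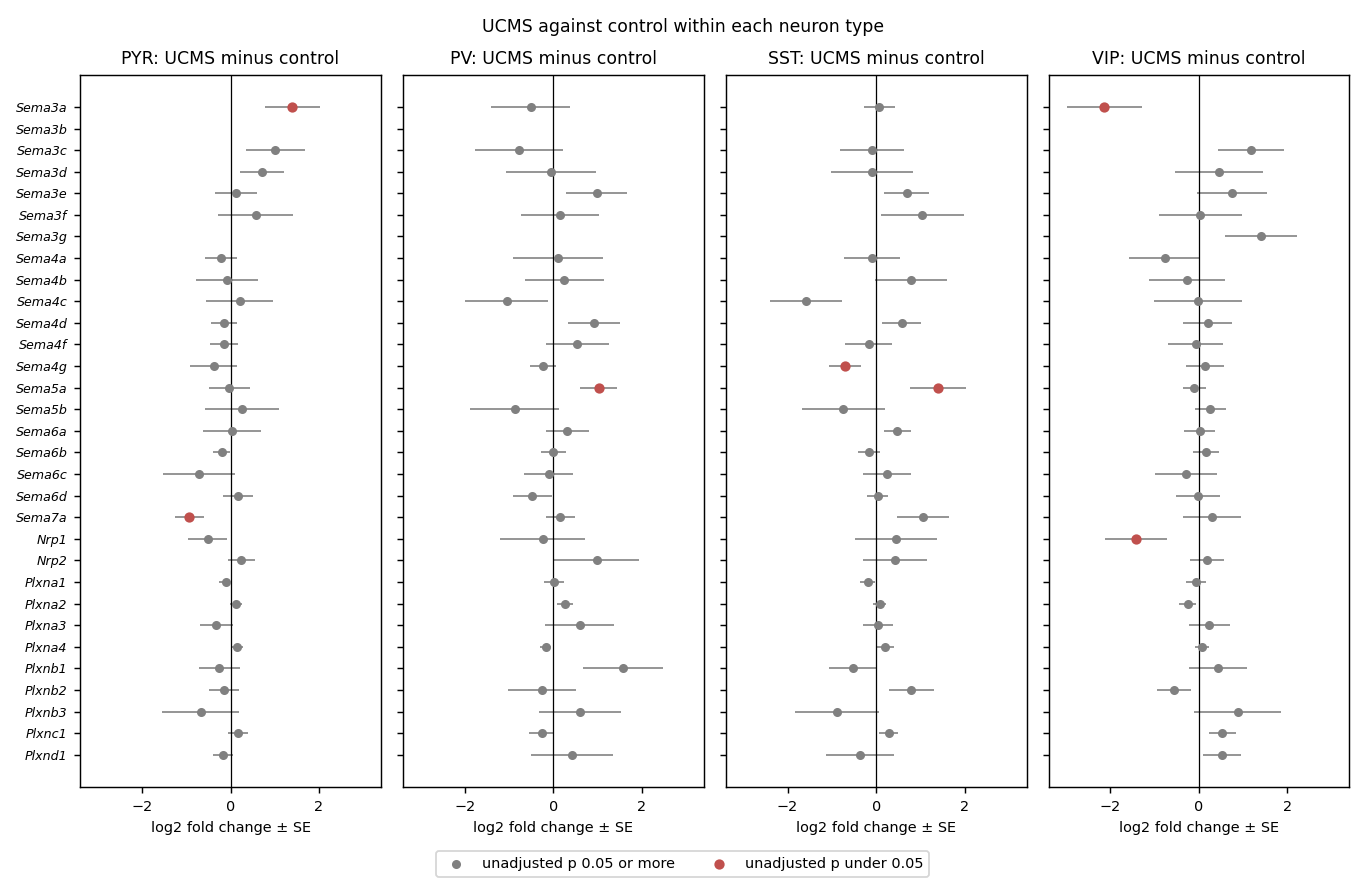
Log2 fold change of UCMS over control (± SE) of each tested member within each neuron type, on log2(normalized count + 4); red marks an unadjusted p under 0.05, and no member passed an adjusted p of 0.05. Nearly all intervals cross or lie close to 0, and Sema3a lies above 0 in PYR and below 0 in VIP neurons.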

How the data were processed

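RNA of 79 pools of 130 laser-captured neurons was made into libraries with the Clontech SMARTer Pico kit for stranded total RNA, per the labels' protocols. The submitters' processing notes name HISAT2, SAMtools 1.3, DESeq2, GRCm38 and mm10. How reads were counted, on which annotation and whether by strand is not stated there or in the labels. The authors deposited 1 table of normalized counts (a signal: reads divided by a size factor of each library). Dividing by the smallest step of a library gave whole reads for 100% of values within 0.01 of a whole number, from 3642579 to 13529571 reads a library. No 2 libraries were identical.

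Groups came from the labels. Genes with a mean of at least 10 in the libraries of a fit were tested on log2(normalized count + 4) with limma 3.58.1 (trend, robust) in R 4.3.3, with Benjamini-Hochberg adjustment over all genes at 0.05; a type against the other 3 also needed a 2-fold difference. The fits of types and of the type-by-stress interaction had the mouse as a block, since the same number in the labels marks the same animal. The median correlation of deviations between libraries of a mouse was 0.0077 over 117 pairs, none over 0.1. The fits were also run on simulated counts with planted changes and no mouse effect. That run could not test the block by mouse, and its outcome is not given here. Alternatives were pseudocounts of 1 and 16, no filter, a mean of at least 50, quantile scaling, detected genes as a covariate, no block, edgeR 4.0.16 and DESeq2 1.42.0 on the recovered reads, and each mouse left out; 2 more, without the 7 libraries with the fewest reads and with the protein-coding share as a covariate, were chosen after seeing the data.

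Genes named by rule were, for each type, up to 3 called members in each direction in control mice, the same in UCMS mice, the 2 members with the smallest p in each stress comparison, and up to 3 called partners. Other called members were named after their values were seen. The members and lists were chosen with earlier results of these data known. IDs were matched to GENCODE M21 (38636 of 38879) and promoters to RefSeq. Python 3.11.15, pandas 2.3.3, scipy 1.17.1 and matplotlib 3.10.9 were used.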

Additional observations from a re-analysis of the deposited data

Results flagged for a closer look

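Single libraries far from the rest of their group were looked for in 16 named members and 128 groups of a neuron type and arm with Dixon's gap rule. It picked out 20 values (15.62% of the groups). The rule picks about 5% of groups by chance only where values are normally distributed. It was run on the log2 scale, and whether the values were normally distributed on that scale was not tested. The share picked out is therefore not read as an excess over chance. Of the 20, 18 were the lowest value of their group and 2 the highest, and no member moved in opposite directions in every mouse of 2 types. All values are normalized counts, with the range of the other libraries of the group beside them.

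In PYR neurons these were Sema4a in UCMS mouse U609 (21.5, others 167 to 606.6), Sema4g in UCMS mouse U608 (0.858, others 44.6 to 497) and Sema5a in control mouse U1 (2.59, others 123 to 658). In PV neurons they were Sema7a in UCMS mouse U610 (149, others 447 to 1059) and Sema6a in control mouse U3 (39.9, others 200.6 to 666), whose library is among the 7 shallowest. In SST neurons of UCMS mice they were Sema4a in U607 (17.1, others 69.3 to 290), Sema6a in U602 (143, others 465 to 1099) and Nrp2 in U606 (0, others 87.8 to 435). In SST neurons of control mice they were Sema4g in U10 (1175, others 346 to 648), Sema6c in U4 (24.2, others 133 to 535), Sema7a in U4 (0, others 57.1 to 377) and Nrp2 in U10 (0, others 37.4 to 377.5).

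In VIP neurons of UCMS mice the values were Sema6d in U607 (61.0, others 218 to 679), Sema7a in U605 (20.9, others 120 to 569), Plxna4 in U602 (3847, others 2465 to 2962) and Plxnd1 in U608 (137, others 378 to 902). In VIP neurons of control mice they were Sema6a in U3 (231, others 449 to 882), Sema6c in U4 (34.2, others 102 to 332), Sema7a in U4 (0, others 49.5 to 726) and Plxnb1 in U6 (2.40, others 131 to 325.5). Control mouse U4 holds 4 of the 20 values, and its VIP library is among the 7 shallowest.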

How the results depend on the processing

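No log2 fold change of a member named by the rule reversed under any alternative run: 1019 of 1050 alternative values kept their direction and side of the threshold, 29 lost a call and 2 gained it. The 1050 include stress fold changes and some type differences that were not called as reported. These had no call to lose, so the share kept overstates how well the calls held. Over all members, 24 of the 54 type calls were lost in at least 1 setting. With edgeR the members called numbered 2 in UCMS SST (5 in the reported fit), 3 in control SST (5), 3 in control PYR (5) and 5 in control PV neurons (10). DESeq2 called 9 in control PYR neurons. In control VIP neurons 3 were called in place of 6 without the 7 shallowest libraries, and 3 with the protein-coding share as a covariate. Leaving out each mouse in turn gave 7 to 8 in PYR, 9 to 10 in PV, 4 to 6 in SST and 5 to 7 in VIP neurons of UCMS mice, 3 to 5 (3 without U4 and 3 without U7), 7 to 10, 4 to 5 and 4 to 6 in control mice, 16 to 18 for the F-test, and 0 for stress. Without the replicate block, the F-test called 17 members, the comparisons of PYR, PV, SST and VIP neurons 7, 9, 5 and 6 in UCMS mice and 5, 10, 5 and 6 in control mice, and the interaction 0, so the pairing by mouse changed no count by over 1.5 times; of the single calls, the block decided that of Sema3d in UCMS PV neurons. Over all genes, stress calls in PYR, PV, SST and VIP neurons were 13, 0, 0 and 0 as reported, 0, 0, 0 and 896 in edgeR and 32, 46, 30 and 83 in DESeq2, with 0 members among them each time. The cause of these changes was not tested. Depth limits what is seen of the scarce members: a value of 0 allows up to 7.19 normalized counts in the shallowest library.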
